A study of Mus musculus with 88 samples.

Results

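The 34 interferon-stimulated genes described here were chosen by name, and each matched 1 gene among the 24453 genes of the deposited annotation. Their RNA was followed in 9 tissues of 10 male C57BL/6NTac mice, 5 with a knockout of Cdh15 (KO) and 5 wild type at Cdh15 (WT). The product of Cdh15 is M-cadherin, through which myoblasts adhere to one another, and by its title the study asked about its role in muscle. Each KO group and each WT group held 5 mice per tissue, except WT kidney and WT spleen with 4, which gave 45 KO and 43 WT libraries. KO and WT mice shared the strain, the sex, an 18 h fast and ages of 65 to 85 days, while the labels do not describe the KO allele itself. Besides heart, kidney, liver, lung and spleen, 4 skeletal muscles were sampled, namely soleus, tibialis, gastrocnemius and extensor digitorum longus (EDL). The libraries were made from polyadenylated RNA of whole tissue, so fewer cells of a type and less RNA per cell cannot be told apart in any result below.

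Interferons are secreted proteins by which cells signal infection to each other. Type I interferons bind the receptor chains Ifnar1 and Ifnar2, and Janus kinases then activate a factor, which includes Stat2 and Irf9 and binds the interferon-stimulated response element. Interferon gamma binds Ifngr1 and Ifngr2 and acts mainly through a different, palindromic element. The induced genes encode sensors of viral RNA and DNA, enzymes and GTPases that block replication, and inhibitors that end the response. In uninfected mice these genes are also transcribed at a low level that depends on weak, steady interferon signalling.

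The sequences at the starts of these genes are shown because type I interferons are known to induce the family through response elements there. RefSeq promoter windows of the GRCm38.p6 build, each with 250 bases before and 50 after an annotated start, were present for 25 of the 34 genes, and the others were Ifi27, Oas2, Mx1, Mx2, Usp18, Dhx58, Rtp4, Zbp1 and Parp14. Letter patterns were searched on both strands. GAAANNGAAA, which reads TTTCNNTTTC on the other strand, is the core of the interferon-stimulated response element, and TTCNNNGAA, which reads the same on both strands, is the core of the STAT palindrome. The first pattern was found in 14 of the 25 genes (56.0%), against 3.99% of all 27025 genes in the table. The second was found in 6 of the 25 (24.0%), against 9.55% of all genes, and 3 genes held both. A match describes these letters and does not show that a factor binds there. The 250 bases before the start are given for Isg15 (chr4:156200819-156201068 on the minus strand), Ifit1 (chr19:34640639-34640888 on the plus strand) and Gbp3 (chr3:142559794-142560043 on the plus strand), a ubiquitin-like modifier, an RNA-binding effector and a GTPase that recur below. Capitals mark the response-element pattern, and matches overlap into 1 run in Isg15 and Gbp3.
Isg15: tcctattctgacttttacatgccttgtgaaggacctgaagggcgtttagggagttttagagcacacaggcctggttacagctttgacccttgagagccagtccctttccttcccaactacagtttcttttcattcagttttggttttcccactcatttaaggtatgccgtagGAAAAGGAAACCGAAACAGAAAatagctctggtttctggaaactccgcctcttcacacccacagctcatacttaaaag
Ifit1: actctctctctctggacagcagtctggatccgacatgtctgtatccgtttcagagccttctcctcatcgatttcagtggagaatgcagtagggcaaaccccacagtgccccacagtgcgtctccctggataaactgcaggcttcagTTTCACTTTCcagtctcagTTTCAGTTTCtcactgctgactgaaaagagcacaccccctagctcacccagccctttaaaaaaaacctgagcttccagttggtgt
Gbp3: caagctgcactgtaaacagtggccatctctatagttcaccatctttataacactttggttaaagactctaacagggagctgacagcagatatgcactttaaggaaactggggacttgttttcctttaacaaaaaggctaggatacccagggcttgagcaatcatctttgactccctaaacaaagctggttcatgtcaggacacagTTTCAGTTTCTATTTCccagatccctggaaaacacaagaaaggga

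The other genes with the response-element pattern are shown by the first matched site with 5 bases on each side, again in capitals, and Ifit3 holds a further, separate match. The site lies after the annotated start in Ifih1, Ddx58 and Eif2ak2 and before one in the others.
Gbp2: tttagTTTCACTTTCactgt
Ifit3: gtaagTTTCACTTTCctctt
Oas1a: ctcggGAAATGGAAACTGAAAatcta
Oas3: gaggaGAAAACGAAAgtgaa
Bst2: tccagGAAAATGAAACTGAAAggctg
Rsad2: ccaacTTTCATTTTCagaaa
Stat2: cctggTTTCAGTTTCctttc
Trim30a: tttagTTTCTTTTTCtcagt
Ifih1: gaatcGAAACAGAAAccgat
Ddx58: ggcagTTTCGATTTCctatg
Eif2ak2: gccggGAAAACGAAAcagaa

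Irf1, a factor that interferon gamma induces, held only the STAT palindrome pattern among these letters.
Irf1: ctgatTTCCCCGAAatgat

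Libraries held 8.21 to 25.1 M counts, with a median of 19.0 M. Cdh15 itself followed the labels in muscle. In EDL it averaged 2.93 ± 0.359 CPM (counts scaled to the library total) in KO mice and 19.1 ± 2.60 CPM in WT mice (SD, n = 5 each), and the ranges of KO and WT mice did not overlap. The other 3 muscles showed the same order without overlap, while heart, kidney, liver, lung and spleen held at most 2 Cdh15 reads in any library. Each tissue held the highest summed markers of its own cell type, for muscle, heart, liver, kidney, lung and, with leukocyte markers, spleen. Of 16 interferon ligand genes in the table, type I and type III members had at most 1 read in any library, with the exception of Ifnz at 5 reads in 1 spleen library. Ifng, the gene of interferon gamma, reached 19 reads in spleen and passed 3 reads in 10 of the 88 libraries. Apart from Ifng, interferon transcripts could therefore not be compared between mice at this depth.

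The level of the family was set first by tissue. Summed over the 34 genes, spleen held the most, with 934 ± 88.2 RPKM (the authors' deposited values, scaled for exon length and library size) in KO mice (SD, n = 5) and 901 ± 74.1 RPKM in WT mice (SD, n = 4). Lung followed with 597 ± 61.6 RPKM in KO and 606 ± 57.1 RPKM in WT mice (SD, n = 5 each). Liver held 324 ± 44.6 RPKM in KO and 306 ± 23.4 RPKM in WT mice (SD, n = 5 each). Kidney, with 174 RPKM in both genotypes, and heart, with 144 and 147 RPKM in KO and WT mice, lay close to each other. The 4 muscles were the lowest tissues, with group means from 42.0 RPKM in KO gastrocnemius to 69.8 RPKM in KO soleus. The order of the 9 means was the same in KO and WT mice. These values are scaled to library size and not for composition. The factors of edgeR for composition (TMM) averaged 2.08 in lung, 0.765 in liver, 1.23 in kidney and 0.951 in heart. The order of lung and liver, and of kidney and heart, therefore depends on this scaling. The ranges of neighbouring tissues met among the muscles and, in WT mice, between kidney and heart.

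**Figure D1:**
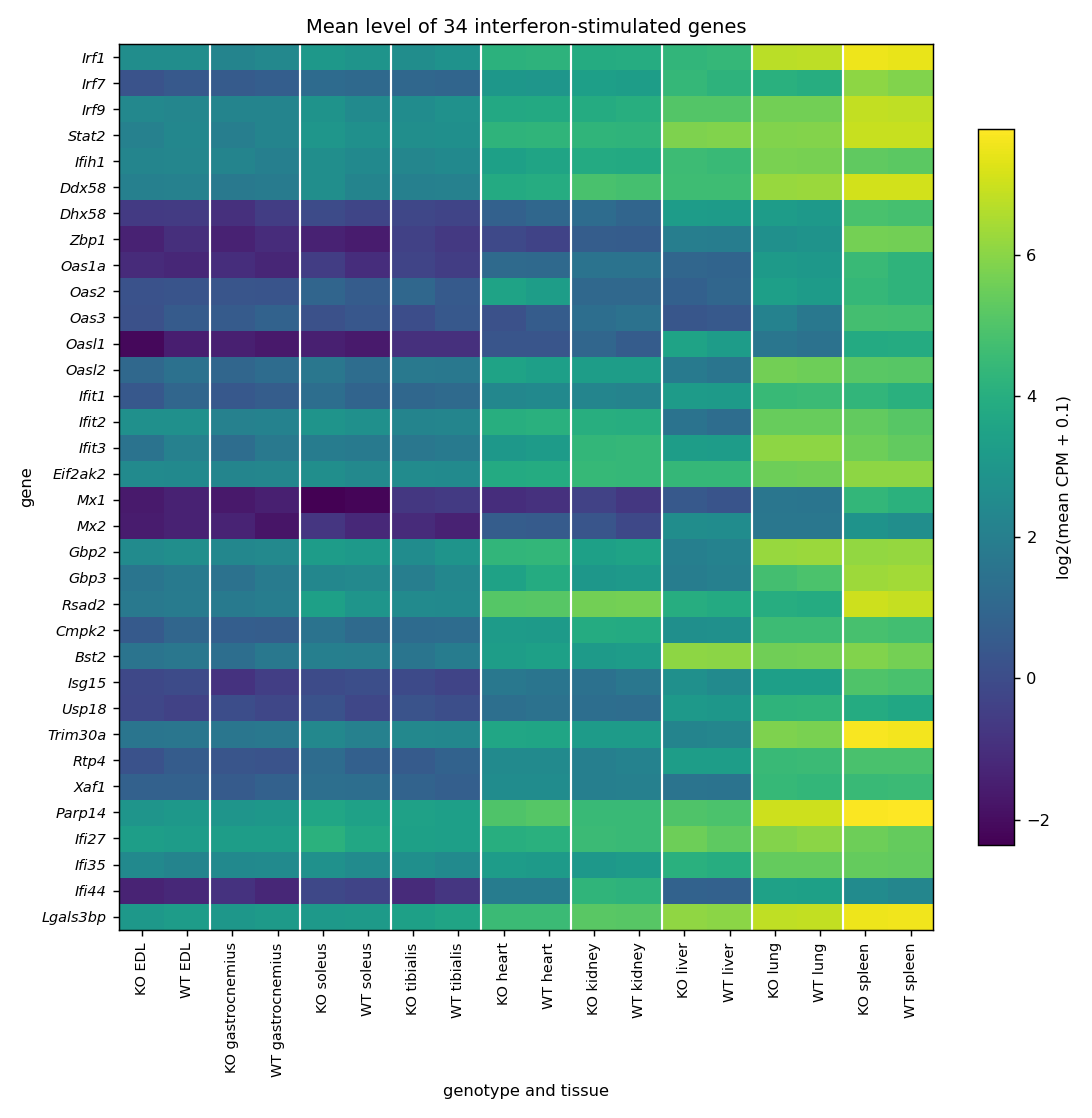
Mean level of each of the 34 genes by tissue, as log2 of the mean CPM plus 0.1, with the KO group left of the WT group in each tissue and genes ordered by role from factors and sensors to effectors. The muscles form a dark block on the left and lung and spleen a bright block on the right, while neighbouring KO and WT columns look alike.

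Each WT tissue was compared with the mean of the other 8 WT tissues on the log2 scale in 1 edgeR fit, and a gene was called at a Benjamini-Hochberg adjusted p under 0.05 over all genes tested. In WT spleen 33 of the 34 genes were higher and none was lower, with a median log2 difference of 2.09, against 41.5% of all genes called higher and 38.2% lower. In WT lung 31 were higher and 2 lower (median 1.18), where 43% of all genes were higher and 38.5% lower. In WT liver 25 were higher and 6 lower (median 1.15), where 36.4% of all genes were higher and 42.3% lower. WT heart stood near the middle with 18 higher and 5 lower (34.6% and 33.4% of all genes), and WT kidney with 10 higher and 13 lower (40.2% and 34.3%). In WT EDL none was higher and 32 lower, where 35.4% of all genes were higher and 32.8% lower. WT gastrocnemius had 0 higher and 33 lower (35.3% and 34.2%), WT soleus 0 and 33 (34.3% and 31.1%), and WT tibialis 0 and 32 (32.6% and 32%). In the same order the median log2 differences of the muscles were -1.30, -1.31, -1.19 and -1.04, while the medians of all genes lay between -0.20 and 0.00 in the 9 tissues. Mx1 in WT soleus had the largest fall called in these contrasts of WT tissues, at -2.51 ± 0.39 (SE, edgeR adjusted p = 2.63e-07), and Ifi44 had the largest in WT EDL, at -2.21 ± 0.24 (SE, edgeR adjusted p = 6.07e-11). Mx1 averaged 0.114 CPM in WT soleus, below the 0.131 to 0.198 CPM that 3 reads make in soleus libraries. The size of its fall is therefore uncertain.

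The same contrasts within KO mice gave the same picture. In KO spleen 34 genes were higher and 0 lower (42.1% and 39.1% of all genes), in KO lung 32 and 1 (43.4% and 38.2%), and in KO liver 25 and 6 (37% and 42.8%). KO heart had 16 higher and 6 lower (35.7% and 33.4%) and KO kidney 11 and 12 (41.8% and 34.9%). No gene was higher in a KO muscle, where 32.5% to 35.7% of all genes were (34.7% for soleus). The lower genes were 33 in KO EDL (33.7% of all genes), 33 in KO gastrocnemius (35.4%), 30 in KO soleus (31.7%) and 32 in KO tibialis (33.2%).

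Spleen was the tissue of highest CPM for 23 genes, lung for 9, and kidney and liver for 1 each, in WT mice. The highest tissue was the same in KO and WT mice for 33 of the 34 genes, and the exception, Ifi35, had nearly equal levels in lung and spleen. These raw CPM are not scaled for composition. The TMM factors of the libraries averaged 2.08 in lung and 1.92 in spleen but 0.695 to 0.804 in the muscles, so the fitted differences between these tissues are smaller than the ratios of raw CPM. In liver the factor averaged 0.765. Ranks of tissues by raw CPM, here and below, can therefore change with this scaling.

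Among the transcription factors, Irf1 averaged 184 ± 11.6 CPM in KO spleen (SD, n = 5) and 176 ± 11.3 CPM in WT spleen (SD, n = 4). It averaged 5.95 ± 0.877 CPM in KO EDL and 5.95 ± 0.640 CPM in WT EDL (SD, n = 5 each). By raw CPM in WT mice, Stat2 and Irf9, which belong to the type I factor, ranked spleen, lung, liver and then the rest. For Stat2, WT lung (59.0 CPM) and WT liver (58.2 CPM) were nearly level. The TMM factors lower lung against liver, so this order holds only for raw CPM. Irf7, which amplifies type I interferon production, stood higher in liver than in lung, with 21.3 ± 4.997 CPM in KO liver and 18.5 ± 3.82 CPM in WT liver (SD, n = 5 each), and 17.0 ± 2.14 CPM in KO lung and 15.4 ± 1.13 CPM in WT lung (SD, n = 5 each).

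Of the sensors of nucleic acids, Ifih1 was highest in lung and Zbp1, Ddx58 and Dhx58 in spleen, by raw CPM in WT mice. Zbp1, a sensor of Z-form nucleic acids, averaged 50.6 ± 11.8 CPM in KO spleen (SD, n = 5) and 49.3 ± 4.87 CPM in WT spleen (SD, n = 4), with a fitted log2 difference of 4.73 ± 0.15 (SE, edgeR adjusted p = 2.8e-29) in WT spleen. Its group means lay below 1 CPM in each muscle of both genotypes. Ddx58, the RNA helicase RIG-I, was present in all tissues and lowest in gastrocnemius, with 3.30 ± 0.757 CPM in KO and 3.53 ± 0.471 CPM in WT mice (SD, n = 5 each). Ifih1, the helicase MDA5, was higher in WT lung by 1.26 ± 0.06 (SE, edgeR adjusted p = 2.26e-22) and in WT spleen by 0.90 ± 0.07 (SE, edgeR adjusted p = 2.94e-15). Raw CPM of Ifih1 was 52.7 in WT lung and 22.8 in WT liver, an order that depends on the scaling for composition. Its relative Dhx58 was higher in WT liver by 2.73 ± 0.10 (SE, edgeR adjusted p = 9.61e-28). By raw CPM Dhx58 was still highest in WT spleen, at 27.6 CPM against 9.07 CPM in WT liver.

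Several effectors departed from the common order of tissues. Ifi44 was highest in kidney, with 19.4 ± 1.87 CPM in KO mice (SD, n = 5) and 18.3 ± 0.885 CPM in WT mice (SD, n = 4), and its log2 difference in WT kidney was 3.42 ± 0.12 (SE, edgeR adjusted p = 7e-27). Bst2, a membrane protein known as tetherin that holds budding virus on the cell, was highest in liver, with 66.0 ± 7.44 CPM in KO mice and 64.2 ± 9.52 CPM in WT mice (SD, n = 5 each). Its liver range overlapped that of spleen. Rsad2, the radical SAM enzyme viperin, ranked kidney and then heart directly after spleen, and was among the 2 genes called lower in WT lung (-1.14 ± 0.14, SE, edgeR adjusted p = 2.58e-09). Oas2, a synthase of 2-5 oligoadenylate that activates RNase L, was called higher in WT heart by 2.04 ± 0.12 (SE, edgeR adjusted p = 5.29e-19), and heart ranked directly after spleen for it.

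Outside the muscles, the largest fall in WT mice was in liver. Ifit2, an RNA-binding effector, averaged 2.77 ± 1.01 CPM in KO liver and 2.30 ± 0.829 CPM in WT liver (SD, n = 5 each), below the mean of each muscle, with a log2 difference of -1.88 ± 0.13 in WT liver (SE, edgeR adjusted p = 6e-17). Ifit1, also on chromosome 19, was not low there, with 9.04 ± 3.32 CPM in KO liver and 8.83 ± 1.56 CPM in WT liver (SD, n = 5 each). The GTPase genes Gbp2 and Gbp3 were also lower in WT liver, with log2 differences of -1.30 ± 0.24 and -0.80 ± 0.19 (SE, edgeR adjusted p = 5.14e-06 and 0.000228). In the same tissue Oasl1 (3.88 ± 0.15, SE) and the dynamin-like GTPase gene Mx2 (3.37 ± 0.15, SE) were the genes with the largest rise, with edgeR adjusted p = 5.85e-26 and 1.38e-23.

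Within skeletal muscle the soleus, the slow muscle of the 4, was compared with the other 3. In WT mice 4 genes were higher in soleus, namely Rsad2, Ifi44, Xaf1 and Ifi27, and Mx1 was lower, against 10.5% and 7.55% of all genes. In KO mice 16 genes were higher and 2 lower, where 23% of all genes were called higher and 21% lower. Rsad2 had the largest rise that was called in KO soleus, at 1.21 ± 0.19 (SE, edgeR adjusted p = 1.9e-06), and its difference in WT soleus was 0.73 ± 0.16 (SE, edgeR adjusted p = 0.000809). Mx1 lay below 1 CPM in every muscle group mean, and up to 6 of the 34 genes had at most 3 reads in some library of a muscle, so their levels there carry large counting error. The difference between genotypes in this contrast was covered only by the test over all 9 tissues given below, in which no gene of the family was called. In WT mice the count of genes higher in soleus was 2 without mouse 3793543 and 1 without mouse 3817948.

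KO and WT mice were then compared within each tissue to ask whether loss of M-cadherin moved the family. No member was called in any tissue by edgeR, nor by the DESeq2 Wald test in the 8 tissues other than soleus. In soleus DESeq2's own filter on low means left no member with an adjusted p, and with adjustment over all genes tested, an alternative chosen after seeing the data, it called none there either (smallest adjusted p = 0.172, for Ifi27). Low counts left 28 members tested in EDL, gastrocnemius and tibialis, 29 in soleus, 33 in heart and 34 in the other 4 organs. An unadjusted edgeR p under 0.05 was reached by 4 members in soleus, by 1 each in EDL, gastrocnemius, tibialis, liver and lung, and by 0 in heart, kidney and spleen. The genes not tested were Oasl1, Mx1, Mx2 and Zbp1 in each muscle, with Oas1a in 3 muscles, Ifi44 in 3 and Dhx58 in tibialis, and Mx1 in heart. The share of all genes called by edgeR was as small, with 0.00771% for soleus, 0.00777% for EDL, 0.00792% for gastrocnemius and 0.0081% for tibialis, Cdh15 alone in each, and 0% in heart, kidney, liver, lung and spleen. DESeq2 called 6.21% of the 2659 genes that its filter left in soleus, or 0.571% with adjustment over all genes, against 0% to 0.0311% in the other 8 tissues. Median log2 fold changes of the members, KO over WT, were 0.18 in soleus, -0.12 in EDL, -0.09 in gastrocnemius and 0.00 in tibialis. They were -0.03 in heart, -0.03 in kidney, 0.04 in liver, -0.01 in lung and 0.04 in spleen, and the medians of all genes were within 0.02 of 0 throughout. When each mouse was left out in turn, the median of the members ranged from 0.13 to 0.22 in soleus, -0.20 to -0.05 in EDL and -0.15 to -0.05 in gastrocnemius. It took both signs in the other 6 tissues, among them liver, where it was -0.09 without KO mouse 3805676 and 0.11 without KO mouse 3793546. The extremes in EDL were reached without WT mouse 3793543 (-0.20) and WT mouse 3817948 (-0.05), and those in gastrocnemius without WT mouse 3793543 (-0.15) and WT mouse 3793553 (-0.05).

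**Figure D2:**
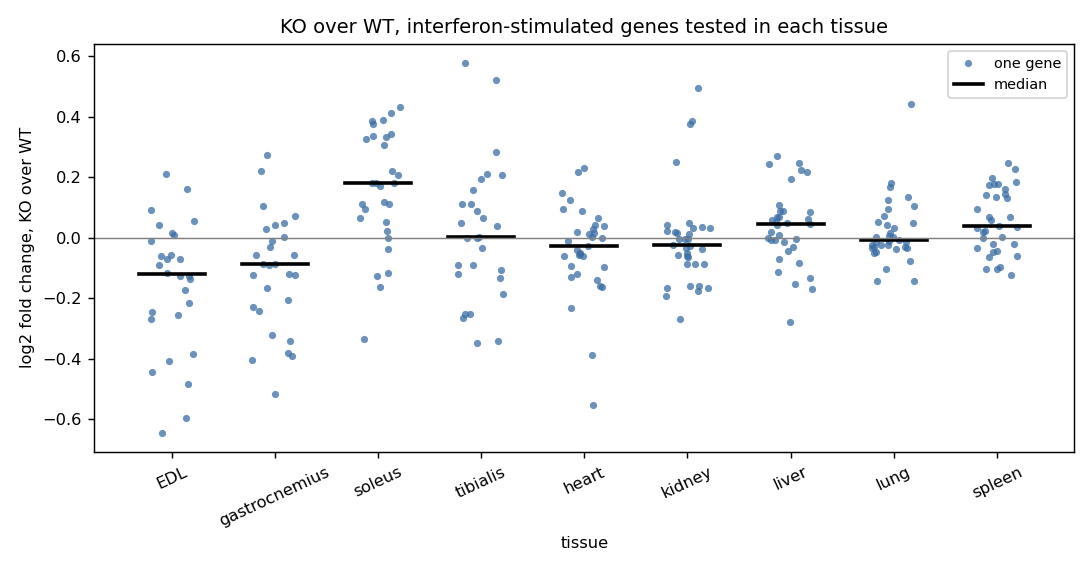
Log2 fold change, KO over WT, of each interferon-stimulated gene tested in a tissue (points) with the median per tissue (bars). Medians run from -0.12 in EDL to 0.18 in soleus, the points spread on both sides of 0 in every tissue, and none passed the adjusted threshold.

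The largest shift of the median was in soleus. There 23 of 29 tested genes lay higher in KO mice, where 53.4% of all genes lay higher. Ifi27, a mitochondrial protein gene, had 14.6, 13.2, 20.8, 18.4 and 18.6 CPM in the 5 KO soleus libraries, against 14.9, 15.4, 10.8, 11.97 and 12.5 CPM in the 5 WT libraries. The groups overlapped, since 2 KO mice lay below 2 WT mice, and the log2 fold change was 0.33 ± 0.12 (SE, edgeR adjusted p = 0.238). Ddx58 had 7.68, 4.33, 6.44, 6.40 and 6.15 CPM in KO soleus, against 5.61, 4.03, 5.29, 3.57 and 4.23 CPM in WT soleus, a difference of 0.39 ± 0.15 (SE, edgeR adjusted p = 0.249). Here 1 KO library fell within the range of the WT libraries and the other 4 lay above it.

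This lean in soleus did not stand alone. An unadjusted p under 0.05 was reached by 17.2% of all genes in soleus, against 0.846% to 4.58% in the other 8 tissues, and by 4 of the 29 members. All 10 markers of macrophages and monocytes lay higher in KO soleus, with a median of 0.55, and none was called by edgeR, or by DESeq2 with adjustment over all genes, while 6 had an unadjusted edgeR p under 0.05. Their summed level ranged from 80.5 to 207 CPM in KO soleus and from 61.6 to 120 CPM in WT soleus. The summed level of 6 striated muscle markers ranged from 51654 to 86594 CPM in KO soleus and from 76945 to 109857 CPM in WT soleus, with 3 of the 6 higher in KO mice and a median log2 fold change of 0.02. None of these 6 was called by edgeR, and DESeq2 called 2 of them with its own filter and 0 with adjustment over all genes. The part of these cells in the lean of the interferon genes was not tested.

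In the other tissues the 2 genes with the smallest p were given by the same rule. In EDL, Cmpk2, a nucleotide kinase of mitochondria, had 1.29, 1.04, 1.24, 1.45 and 1.71 CPM in KO mice, against 1.89, 1.77, 1.74, 1.71 and 2.26 CPM in WT mice. The highest KO library fell just short of the lowest WT library, the counts behind these values were 20 to 54 reads, and the fold change was -0.48 ± 0.18 (SE, edgeR adjusted p = 0.986). The other gene there was Ifit1, at -0.60 ± 0.28 (SE, edgeR adjusted p = 0.986), with overlapping groups.

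In lung, Oas3 was the only other gene whose groups did not overlap among the genes of smallest p. The share of all genes without overlap was not counted. Genes picked by small p are more likely to separate, so the gaps for Cmpk2 and Oas3 only describe their values. It had 4.53, 3.96, 4.05, 3.78 and 5.14 CPM in KO lungs, against 2.79, 3.68, 3.01, 2.81 and 3.40 CPM in WT lungs, and the log2 fold change was 0.44 ± 0.13 (SE). It was not called by edgeR, and over 9 tissues its fold change had the other sign, at -0.19. Its lung counts were 25 to 92 reads. Dhx58 was the second gene of lung at 0.18 ± 0.12 (SE), with overlapping groups.

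The remaining pairs all overlapped between KO and WT mice. They were Bst2 (-0.38 ± 0.16, SE) and Stat2 (-0.24 ± 0.14) in gastrocnemius, Oas2 (0.58 ± 0.23) and Ifi35 (0.21 ± 0.12) in tibialis, and Parp14 (-0.14 ± 0.07) and Ifih1 (-0.16 ± 0.08) in heart. In kidney they were Mx2 (0.49 ± 0.24) and Oasl1 (0.37 ± 0.18), in liver Ifi27 (0.25 ± 0.08) and Isg15 (0.24 ± 0.19), and in spleen Irf7 (0.18 ± 0.08) and Mx1 (0.20 ± 0.11). Ifi27 was the gene of smallest p in soleus and in liver. In liver it had 45.0, 40.6, 48.2, 52.3 and 45.2 CPM in KO mice, against 44.4, 36.5, 34.6, 36.9 and 42.8 CPM in WT mice.

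Averaged over the 9 tissues with the mouse as a random effect in limma, 17 members lay higher and 17 lower in KO mice and none was called, where 0.00583% of all genes was called, Cdh15 alone. An unadjusted p under 0.05 was reached by 3 members, Gbp3 (-0.21 ± 0.08, SE), Mx2 (0.25 ± 0.12) and Oas3 (-0.19). That fit uses 1 correlation between libraries of a mouse for all genes, 0.0461, so for genes that vary more between mice, as described next, its p-values are too small. Whether the difference between genotypes varied between tissues was tested as an interaction in edgeR. It was called for none of the 34 genes, none had an unadjusted p under 0.05, and 0.00583% of all genes was called, which is Sln alone.

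The family varied instead between individual mice. For each gene edgeR tested whether some mice of a genotype stood high or low over all their tissues, after the 18 means of tissue and genotype had been removed. This was called for 21 of the 34 genes (61.8%), against 10.9% of all 17151 genes tested. The mouse accounted for a median of 30.2% of the variance within groups for the 34 genes and 14.9% for all genes, where the degrees of freedom alone give 11.4%. These differences are between animals of the same genotype, strain and sex.

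**Figure D3:**
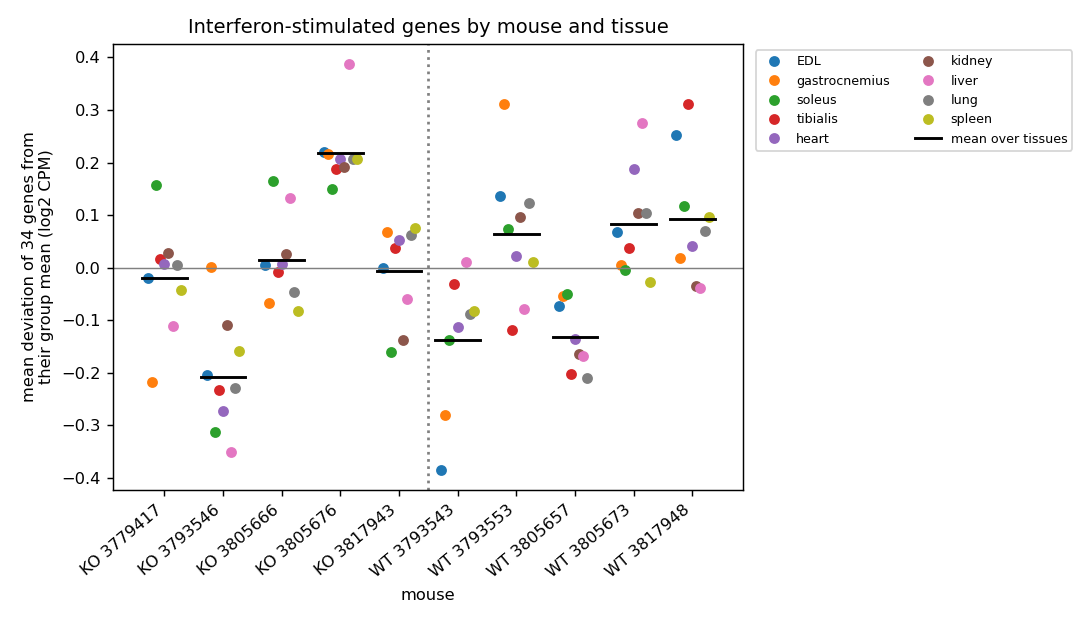
Mean deviation of the 34 genes from their group mean in log2 CPM for each mouse (KO mice left of WT mice), with 1 point per tissue and a bar for the mean over tissues. All 9 tissues of KO mouse 3805676 lie above 0, 8 of 9 tissues of KO mouse 3793546 lie below 0, and all 8 tissues of WT mouse 3805657 lie below 0.

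Among KO mice, the mouse 3805676, 71 days old, was the highest in 8 of 9 tissues, with a mean deviation of 0.22 on the log2 scale over the 34 genes. KO mouse 3793546, 82 days old, was the lowest in 7 of 9 tissues, with a mean of -0.21. The other 3 KO mice had means between -0.02 and 0.01. Among WT mice, 3793543 (82 days) and 3805657 (72 days) had means of -0.14 and -0.13, and the other 3 WT mice lay between 0.06 and 0.09. Both 82-day mice were low and both 71-day mice high, but 85 and 83 days gave -0.02 in KO and 0.06 in WT mice. With 1 KO and 1 WT mouse at or near each age, age and mouse cannot be told apart.

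The agreement between tissues was seen across organs that were sampled separately. The mean deviations of the mice correlated positively in all 36 pairs of tissues, with Pearson r from 0.111 for gastrocnemius and tibialis to 0.922 for heart and lung and a median of 0.642 (8 to 10 mice per pair). In the 20 pairs of a muscle with another organ the median was 0.596. These correlations describe the same few mice in each pair, and any factor shared by the libraries of a mouse would enter them.

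Gbp3 (chr3:142560052-142573212) and Gbp2 (chr3:142620663-142638008), by the authors' mm10 annotation, had the smallest p-values (edgeR adjusted p = 8.35e-11 and 6.87e-09). They encode guanylate-binding proteins that attack vacuoles of pathogens. In lung, Gbp3 had 30.9, 19.4, 23.9, 36.2 and 24.97 CPM in KO mice 3779417, 3793546, 3805666, 3805676 and 3817943. It had 21.99, 30.02, 22.9, 40.3 and 33.2 CPM in WT mice 3793543, 3793553, 3805657, 3805673 and 3817948. In gastrocnemius, where its level was far lower, the KO mice in the same order had 2.66, 2.50, 2.62, 3.36 and 2.38 CPM and the WT mice 1.97, 5.08, 2.90, 4.59 and 2.998 CPM. KO mouse 3805676 and WT mouse 3805673 were thus high and WT mouse 3793543 low in both tissues. Over the 9 tissues KO mouse 3793546 lay below its group mean for Gbp3 in 9 of 9, WT mouse 3793543 in 8 of 8, and WT mouse 3805673 above it in 9 of 9. The fitted range between mice was 1.53-fold among KO and 1.74-fold among WT mice for Gbp3, and 1.44-fold and 1.95-fold for Gbp2.

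Stat2 and Irf9, the partners in the type I factor, were the next regulators (edgeR adjusted p = 2.55e-07 and 7.57e-05). WT mouse 3805673 lay above its group mean for Stat2 in 9 of 9 tissues, and KO mouse 3793546 lay below it for Irf9 in 9 of 9. Their ranges were small: for Stat2 the highest KO mouse stood at 0.17 and the lowest at -0.18 on the log2 scale, relative to the mean of KO mice. Irf9 also had the highest correlation with the mean of the other 33 genes over the 88 libraries, after group means were removed (Pearson r = 0.772).

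The 2-5 oligoadenylate synthase family was split. Oasl2 and Oas2 (edgeR adjusted p = 3.24e-05 and 3.26e-05) and Oas1a (0.0164) were called, while Oas3 (0.435) and Oasl1 (0.871) were not. Among KO mice Oas2 stood at 0.28 in 3805676 and -0.46 in 3793546 on the log2 scale, and Oas1a at 0.43 and -0.32. Oasl2 lay above the group mean in 9 of 9 tissues of KO mouse 3805676.

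Among KO mice the classical effectors Ifit1 and Isg15 spanned 0.73 and 0.62 on the log2 scale, against 0.35 for Stat2 and 0.42 for Irf9, while among WT mice Ifit1 and Stat2 each spanned 0.42. In lung, Isg15 had 8.50, 7.59, 9.74, 14.7 and 9.94 CPM in KO mice in the order given for Gbp3, and 10.2, 11.6, 7.22, 11.01 and 11.5 CPM in WT mice. Ifit1 had 19.8, 16.9, 23.2, 30.5 and 21.3 CPM in the KO lungs and 19.97, 31.2, 18.2, 22.9 and 24.8 CPM in the WT lungs. KO mouse 3805676 was the highest KO mouse for both, at 0.42 and 0.45 log2 above the KO mean in the fit over all tissues (edgeR adjusted p = 0.000351 for Isg15 and 0.000145 for Ifit1).

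The order of mice was not identical for all genes. KO mouse 3779417 stood at 0.12 for both Gbp2 and Gbp3 but at -0.27 for Ifit1 and -0.22 for Ifit3. WT mouse 3805673 was the highest WT mouse for Gbp2 (0.49) and Gbp3 (0.40), while WT mouse 3793553 was the highest for Ifit1 (0.24) and Ifit3 (0.27). Of the 21 called genes, 19 had KO mouse 3805676 as the highest KO mouse, and Irf1 and Lgals3bp were the others. The lowest KO mouse was 3793546 for 20 of them.

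**Figure D4:**
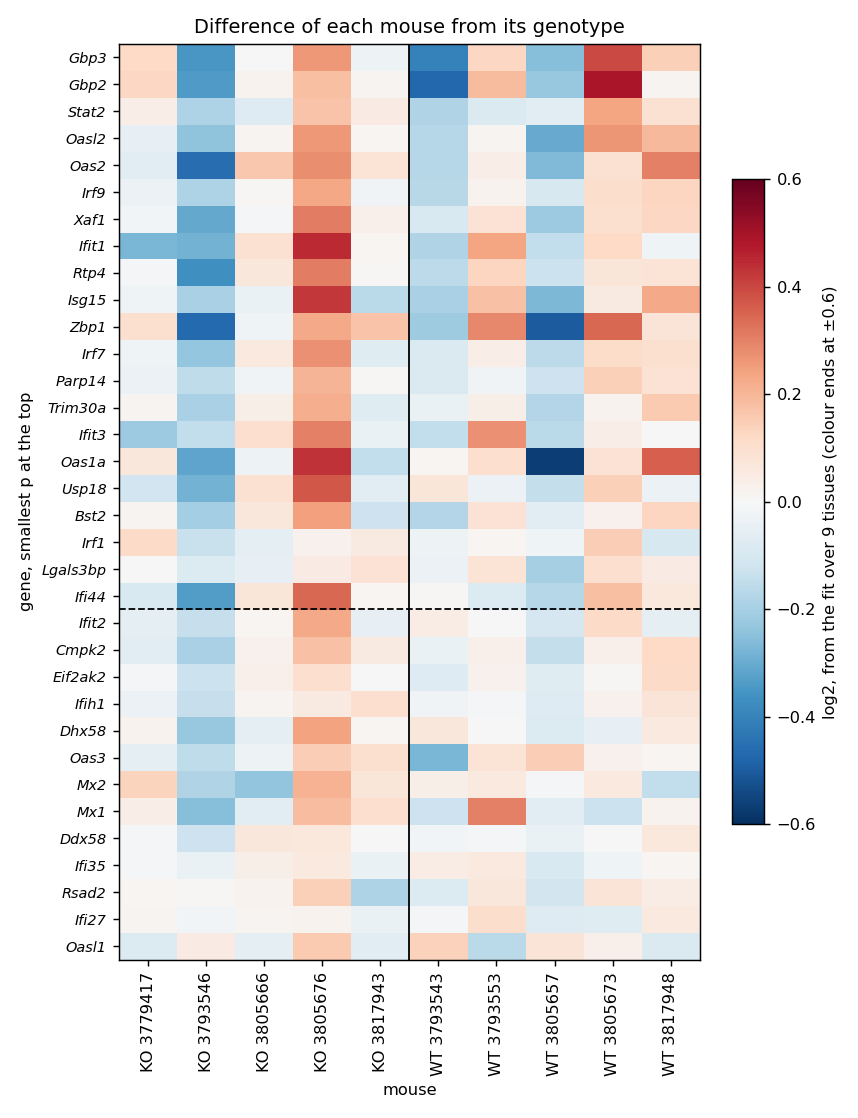
Fitted difference of each mouse from the mean of its genotype, in log2 over 9 tissues, for the 34 genes ordered by p with the smallest at the top (KO mice left of WT mice, dashed line below the 21 called genes). KO mouse 3805676 is red and KO mouse 3793546 blue in nearly all called rows, and the contrast fades towards the bottom rows.

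The 13 genes not called were Ifit2, Cmpk2, Eif2ak2, Ifih1, Dhx58, Oas3, Mx2, Mx1, Ddx58, Ifi35, Rsad2, Ifi27 and Oasl1. They include the RNA helicase sensors Ifih1, Ddx58 and Dhx58 and the antiviral kinase gene Eif2ak2. Ifi35, Ifi27 and Mx2 had the lowest correlations with the mean of the other 33 genes (r = 0.0457, 0.0661 and 0.113). A response-element pattern was present in 9 of the 16 called genes with a promoter window and in 5 of the 9 genes that were not called.

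The call rested in part on single mice. Without KO mouse 3805676 the number of called genes was 11, where 8.68% of all genes were called, and without KO mouse 3793546 it was 15, where 9.11% were. In the 5 other organs alone 14 of the 34 were called, where 2.01% of all genes were, and in the 4 muscles alone 8 of 32, where 22.1% of all genes were. In the muscles alone the called share of the family was thus near that of all genes. The genes called in both subsets were Ifit3, Irf9, Stat2, Oasl2, Rtp4, Gbp2 and Gbp3, 7 in all. The share of all genes called in both subsets was not counted.

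Other genes of the pathway were examined in lists. Of 27 GTPase and other genes induced by interferon gamma, 17 were called, among them Tgtp2 and Gbp4 (edgeR adjusted p = 7.6e-14 and 1.21e-13), Gbp7 and Gbp5. Tgtp2, an immunity-related GTPase gene, spanned -0.85 in KO mouse 3793546 to 0.78 in KO mouse 3805676 on the log2 scale, and WT mouse 3805673 stood at 0.95. Of 55 tested further interferon-stimulated genes 17 were called, with Ifi205, Dtx3l, Nlrc5 and Trafd1 of smallest p. Of these, Trafd1 did not follow the order of the others, at 0.08 in KO mouse 3793546 and 0.06 in KO mouse 3805676, and at 0.17 in WT mouse 3793543 and -0.10 in WT mouse 3805673. Called in 2 further lists were Ifngr1 and Ifngr2 of 9 receptors and kinases and Tlr7 and Trim25 of 16 sensors and adaptors. Ifng, the only ligand gene with enough counts for the test, was not called.

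**Figure D5:**
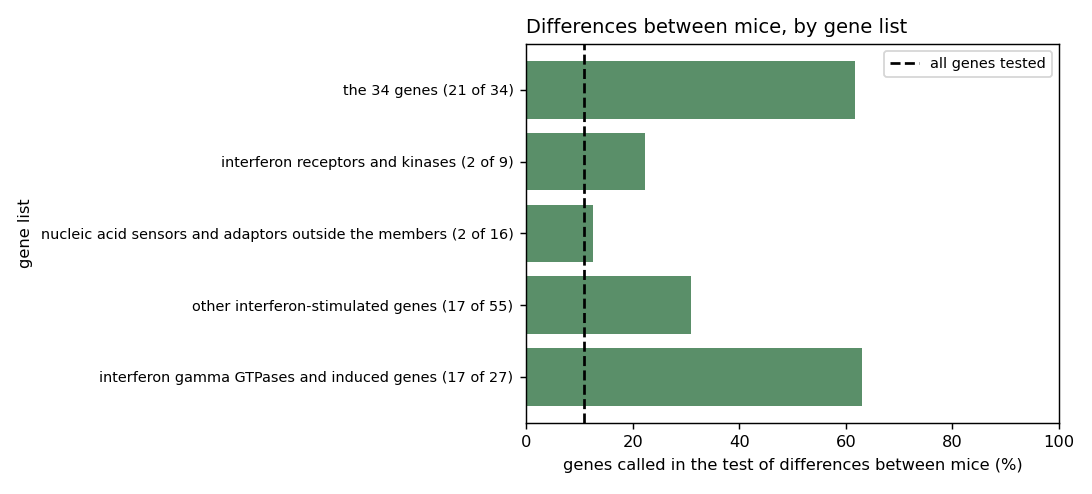
Percent of the tested genes of each of 5 lists that were called in the edgeR test of differences between mice, with the number called and tested in brackets and the percent over all genes as a dashed line. The 34 genes (61.8%) and the interferon gamma list (63.0%) stand far to the right of the line at 10.9%, and the receptor and sensor lists lie nearer to it at 22.2% and 12.5%.

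Markers of other cells moved with some of these mice. Of 10 macrophage and monocyte markers, 4 were called (C1qa, C1qb, C1qc and Adgre1), and the mean deviation of the list was 0.13 in KO mouse 3805676 and -0.22 in KO mouse 3793546, as for the interferon genes. It was 0.19 in KO mouse 3805666, whose interferon genes averaged 0.01. In WT mice 3793543 and 3817948 it was -0.24 and 0.23, where the interferon genes averaged -0.14 and 0.09. In WT mice 3793553 and 3805657 it was 0.05 and -0.02, against 0.06 and -0.13. In KO mice 3779417 and 3817943 it was -0.08 and -0.02, against -0.02 and -0.01. In WT mouse 3805673, the WT mouse with the highest Gbp2 and Gbp3, it was -0.06, while the median of the fitted values was 0.03 and the 4 called markers stood between 0.03 and 0.11. C1qa, C1qb and C1qc ranked 17, 23 and 28 by correlation with the family over the libraries. The summed level of all 10 macrophage and monocyte markers ranged from 60.8 CPM in a WT gastrocnemius library to 5890 CPM in a WT lung library. None of 5 plasmacytoid dendritic cell markers was called, while 2 had an unadjusted p under 0.05 (0 called with DESeq2 size factors as well). The summed level of these markers was highest in kidney, with a median of 559 CPM in KO kidney and 300 CPM in KO spleen. The list may therefore not reflect these cells here, and nothing about them follows from it. Of 5 neutrophil markers 4 were called. Their mean deviation was opposite in sign to Gbp2 and Gbp3 in WT mice 3793543 (0.72), 3805673 (-0.68), 3805657 (0.17) and 3817948 (-0.45). In the last of these Gbp2 was near 0 (0.02). The mean deviation was also opposite in sign in KO mouse 3779417 (-0.23). In KO mouse 3805666 it was -0.28, where Gbp2 (0.02) and Gbp3 (0.0005) were near 0. It shared their sign in KO mouse 3805676 (0.24) and WT mouse 3793553 (0.34). In KO mouse 3793546 it was -0.05, while the median of the fitted values was 0.05, so its sign there depended on the measure. In KO mouse 3817943 it was 0.32, where Gbp2 and Gbp3 differed in sign. The median of the fitted values was 0.23 in WT mouse 3793543. Summed levels fell to 0.36 CPM in a WT tibialis library, where counting error is large. Of 6 endothelial markers Cldn5 and Kdr were called (edgeR adjusted p = 4.29e-06 and 0.00253). Cldn5, a tight junction protein gene, stood at 0.31 in KO mouse 3793546, -0.17 in KO mouse 3805676, 0.38 in WT mouse 3793543 and -0.28 in WT mouse 3805673. Of 5 fibroblast markers the collagen genes Col3a1, Col1a1 and Col1a2 were called, and Col3a1 (edgeR adjusted p = 5.31e-09) stood at -0.17 in KO mouse 3793546, 0.10 in KO mouse 3805676, -0.39 in WT mouse 3793543 and 0.71 in WT mouse 3817948. In WT mouse 3805673 the mean deviation of the fibroblast markers was -0.02. The part of these cells in the differences between mice was not tested.

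The interferon gamma list was also compared between genotypes, with all mice and with single mice left out. In KO mice 0 of 20 tested genes of that list lay higher in tibialis and 0 of 22 in heart, 1 of 24 in kidney, 2 of 21 in gastrocnemius and 4 of 20 in EDL, with medians of -0.21, -0.19, -0.19, -0.22 and -0.24. In soleus 10 of 22 lay higher, with a median of -0.02, in liver 4 of 26, in lung 6 of 26 and in spleen 8 of 25. Of all genes tested, 46.7% lay higher in gastrocnemius and 53.4% in soleus, and the shares in the other tissues lay between these. None was called in any tissue by edgeR, or by DESeq2 with adjustment over all genes, and an unadjusted edgeR p under 0.05 was reached by 2 genes in heart and 2 in soleus. WT mouse 3805673 had the highest fitted median of this list among all mice, at 0.34. Leaving it out therefore tends to raise the medians of KO over WT by construction, and the part of single mice in them was not tested. Without WT mouse 3805673 the medians became 0.00 in EDL, -0.01 in heart and -0.09 in kidney. In liver, lung and spleen the medians were -0.06, -0.07 and -0.07 with all mice and 0.09, 0.08 and 0.02 without it. Tibialis and gastrocnemius stayed at -0.17 and -0.23 without that mouse, and soleus stood at 0.16. Other mice moved these medians too. Without WT mouse 3793553 gastrocnemius had a median of -0.14 with 8 of 21 genes higher, and soleus 0.11. Without KO mouse 3793546 the medians were -0.13 in EDL, -0.08 in heart, 0.11 in soleus, 0.01 in liver and 0.02 in lung. Without WT mouse 3793543 they were -0.44 in EDL, -0.35 in gastrocnemius and -0.14 in lung, and without KO mouse 3805676 -0.39 in EDL, -0.15 in liver and -0.18 in lung.

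Genes outside the 34 were ranked by their correlation with the mean deviation of the family over the 88 libraries, as a description, since these libraries share mice and depth. Gvin1 came first of 17117 (r = 0.733), and the first 12 included Gm4070, Serpinh1, Ifi203, Parp9, Ms4a6d, Irgm1, Gbp7, Ankfy1, H2-Ab1 and Tgtp2 (r = 0.631). Of the first 50 genes, 22 were in lists of interferon genes. Serpinh1, a collagen chaperone, and H2-Ab1, the beta chain of a class II molecule that presents antigen, were not in any of them.

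Some of these values may mix near-identical genes. Of the 50-base words in the longest transcript, 57.6% of Oas1a were shared with Oas1g and 51.2% of Ifit3 with Ifit3b. The shares were 13.6% of Rtp4 with Gm45338, 7.06% of Ifit1 with Ifit1bl2, 6.71% of Mx2 with Mx1, 6.53% of Trim30a with Trim30d and 4.79% of Gbp3 with Gbp7. How reads shared by such copies were assigned is not stated in the labels, so the levels of Oas1a and Ifit3 in particular are uncertain.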

How the data were processed

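The authors deposited estimated counts per gene, of which 85.5% are whole, and RPKM, for stranded KAPA libraries of polyadenylated RNA, per the labels' protocols. Gene models were mm10, per the file headers, and the labels name no aligner or counter. The design had assumed whole counts, so the deposited counts were rounded to whole numbers first. RPKM as deposited by the authors were used only for summed levels. CPM are rounded counts divided by the library total in M. Counts of 22 marker sequences, 0 to 0.0323% of a library, were left out. R 4.3.3 was used with edgeR 4.0.16 (TMM, quasi-likelihood F test, minimum count 10 and total 15), limma 3.58.1 (voom, mouse as random effect) and DESeq2 1.42.0, with Benjamini-Hochberg adjustment over all genes tested and a threshold of 0.05. Simulated counts were used to try edgeR for KO against WT in soleus, the mouse test, the interaction, the WT lung contrast and the limma fit. The limma simulation held no differences between mice. The DESeq2 Wald test and the other steps were not tried on simulated data. Mouse numbers in the labels pair libraries of the same animal across tissues, not KO with WT animals. The difference between mice was tested with 8 mouse terms beside the 18 means of tissue and genotype. Replicates are separate mice. WT kidney of mouse 3793543 and WT spleen of mouse 3805657 were not analysed here. Genes named with a test were the 2 of smallest p in each tissue between genotypes, the 6 of smallest p between mice, up to 4 called each way by size in each tissue, the 4 of smallest p in each list, and the 12 of highest correlation; others among the 34 were described after their values were seen. Results for some genes of these lists are not reported here. The 34 genes and all lists were chosen with earlier results of these data known. Alternatives were other size factors, no filter on low counts, DESeq2's Wald test (also with adjustment over all genes tested, added after seeing the data), age as a covariate or block, the mouse as a block, subsets of tissues, and leaving out each mouse.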

Additional observations from a re-analysis of the deposited data

Results flagged for a closer look

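Outside the comparisons, reads assigned to the LacZ marker sequence summed to 2289 over the KO libraries and 3 over the WT libraries, with reads in 21 KO libraries. No library stood apart by Dixon's test for any of 66 groups of values checked, where chance gives about 1 in 20.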

How the results depend on the processing

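Of the counts of called genes recomputed under the alternatives, 361 stayed within 1.5 times and 12 moved further. The count of genes that differed between mice was 8 in the muscles alone and ranged from 11 to 21 when each mouse was left out, with 11 without KO mouse 3805676. Irf9, Stat2, Oasl2, Gbp2 and Gbp3 were called in each of these settings. The share of all genes called in every setting was not counted, and most settings share libraries. The 5 genes lower in WT heart were 3 to 5 when each WT mouse was left out, and the 2 lower in WT lung were 1 in KO mice, where Oas3 had a log2 difference of 0.12 against -0.62 in WT lung. For soleus against the other 3 muscles, the count higher was 16 in KO mice and 1 to 5 when each WT mouse was left out. The count lower was 2 in KO mice, 2 with the mouse as a replicate block, and 0 to 1 when each WT mouse was left out; the block moved no other count this far. The cause of these shifts was not tested. Of the values of single genes, 912 kept direction and call, 19 lost the call and 1 changed sign. No member was called between genotypes when any mouse was left out, with counts of 0 in each of the 9 tissues. DESeq2 with its own filter gave no member an adjusted p in soleus, so the adjustment over all genes tested was added after seeing the data and called 0 members in each tissue. Genes with at most 3 reads in muscle could not be compared there at this depth, and counting error is the only error that depth covers.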
